A study of Nicotiana tabacum with 8 samples.

Results

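Of the 81378 genes in the table of tobacco leaf counts, 23 had at least 3-fold higher transcript levels in the salt-treated leaves of an *NtCBL5A*-overexpressing line and similar levels in the other 3 groups. They were chosen by ratios of FPKM + 0.1, where FPKM is the number of fragments on a gene divided by its length and by a measure of library size. In both experiments, the ratios S-OE2/S-WT and S-OE2/C-OE2 had to be at least 3. The ratios S-WT/C-WT and C-OE2/C-WT had to lie from 0.67 to 1.5, a range called the band here. The S-OE2 library needed a count of at least 50, and genes that the study names with an identifier were left out. All 4 ratios are therefore values that chose the genes, and they are given as a description.

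The 4 groups were S-OE2, S-WT, C-OE2 and C-WT. OE2 stands for OE-2, a single transgenic line of *Nicotiana tabacum* cv. Zhongyan 100 that overexpresses *NtCBL5A*, and WT is wild type. S plants were sampled 4 days after NaCl was first added to the hydroponic solution, in steps up to 100 mM, and C plants had no added NaCl. Each library was made from the fifth leaf blades of 4 pooled plants, with the main vein removed, at an age of about 34 days after germination. Each of the 2 independent experiments gave 1 library per group, so that 8 libraries were compared. The results hold for 1 transgenic line, and p-values measure the spread between pooled libraries.

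CBL proteins are calcium sensors of plants. They bind calcium and act through partner protein kinases, the CIPKs, and the best-known pair in Arabidopsis, CBL4 with CIPK24, drives sodium export under salt stress. Tobacco is an allotetraploid and carries many genes as near-identical copies from both of its parental genomes.

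The total count on genes ranged from 18674594 to 31672013 per library. The 12 photosynthesis genes that served as leaf markers, which the study picked on these samples, all lay at 81.0 FPKM or more in every library. The gene of *NtCBL5A* itself is not paired with an identifier here. Nitab4.5_0007367g0040 had 0 counts in all WT libraries and 12311 to 18196 counts in the OE2 libraries, and in this gene every library followed its genotype label. How reads shared by near-identical genes were counted, and whether strand was used, is not given in the sources used here. In whole leaf blades, fewer cells of a type and less RNA per cell cannot be told apart. The table gives identifiers without descriptions, and none of the 23 identifiers was matched to a gene name, so the genes are described by their levels, positions and structure and not by their roles.

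The ratios to the salt-treated WT and to the control OE-2 leaves kept many more genes than 23. Of the 81378 genes, 30725 had an S-OE2 count of at least 50 in both experiments. Among these, 1084 had S-OE2/S-WT of at least 3 in both experiments, 1114 had S-OE2/C-OE2 of at least 3, and 818 had both. The band for the salt ratio in WT then removed most of them. S-WT/C-WT lay in the band in both experiments for 61 of the 818 genes, and C-OE2/C-WT for 217. The experiments differed in this step. In Experiment 1, S-WT/C-WT was above 1.5 for 670 of the 818 genes, below 0.67 for 30 and in the band for 118. In Experiment 2 it was above 1.5 for 185, below 0.67 for 233 and in the band for 400. Over the 818 genes the median S-WT/C-WT was 3.92 in Experiment 1 and 1 in Experiment 2. Most of the genes with a high level in S-OE2 thus also had a higher level under salt in WT in Experiment 1, and the 23 genes belong to the minority that did not.

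**Figure D1:**
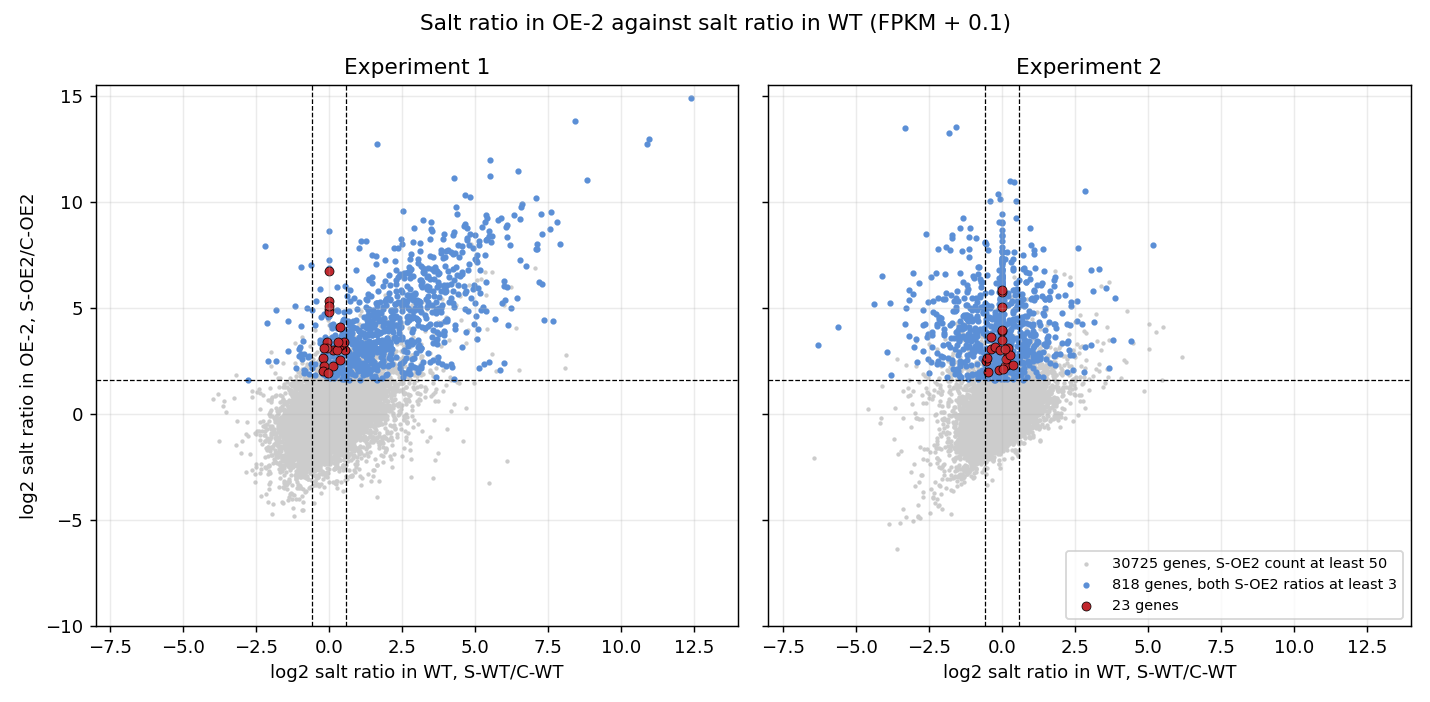
Salt ratio in OE-2 (log2 of S-OE2/C-OE2, vertical axis) against salt ratio in WT (log2 of S-WT/C-WT, horizontal axis) in each experiment, on the FPKM + 0.1 scale. Grey points are the 30725 genes with an S-OE2 count of at least 50, blue points the 818 genes with both S-OE2 ratios of at least 3 and red points the 23 genes, and dashed lines mark the limits. Most blue points lie right of the band in Experiment 1 and on both sides of it in Experiment 2.

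The genes that the study names with an identifier show the same step. Of the 12 named defense genes, which the study chose in part on these samples, 10 had both S-OE2 ratios of at least 3 in both experiments. All 10 left the band for S-WT/C-WT in Experiment 1, each of them upwards. In Experiment 2, 7 left it, 2 upwards and 5 downwards. Of the 4 named cation genes, 3 had both S-OE2 ratios of at least 3, and all 3 left the band upwards in Experiment 1. None of the 12 photosynthesis genes reached the S-OE2 ratios. In the quasi-likelihood test of edgeR, adjusted after Benjamini and Hochberg, S-OE2 was called higher than S-WT in 11 defense genes and lower in 0. It was called higher in 2 cation genes and lower in 1, and higher in 0 photosynthesis genes and lower in 12. Of all tested genes, 4.17% were called higher and 3.2% lower. The study picked the cation and photosynthesis genes by their changes in these same samples, so nothing is read from the calls in these lists. *PR-Q*, which encodes an acidic chitinase of the pathogenesis-related proteins, missed 1 limit only. It had 244624 and 130529 counts in S-OE2, 6944 and 115 in S-WT, 46 and 109 in C-OE2, and 43 and 110 in C-WT in Experiments 1 and 2. Its S-WT/C-WT ratio was 88.1 in Experiment 1 and 0.95 in Experiment 2. Altogether 0 of the 28 named genes met all limits, so that leaving them out removed nothing.

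Genes that missed 1 kind of limit only lay on every side of the 23. The limit on S-WT/C-WT held back 154 genes from above and 19 from below. Genes above the band in 1 experiment and below it in the other are not in these numbers. The 154 include *PR-Q* and *NCX1*, which the study names and which would stay left out. The limits on C-OE2/C-WT held back 20 genes from above and 14 from below, counted in the same way. The limit of 3 held back 8 genes by S-OE2/S-WT and 7 by S-OE2/C-OE2, and the count of 50 held back 206. By the lower of the S-OE2/S-WT ratios of both experiments, the members nearest to the limit were Nitab4.5_0012281g0020 at 3.52 and Nitab4.5_0001428g0040 at 3.79. The nearest genes outside were Nitab4.5_0002700g0220 at 2.92 and Nitab4.5_0000448g0030 at 2.79. By the S-OE2 count, Nitab4.5_0008984g0010 and Nitab4.5_0000376g0150 were inside at exactly 50, and Nitab4.5_0000500g0320 and Nitab4.5_0000051g0380 were outside at 48. Both genes at 48 had 0 counts in all 6 other libraries, like 4 of the members. By S-WT/C-WT, Nitab4.5_0004360g0060 was inside at 1.46, with 2 counts in S-WT against 0 in C-WT, and an assembled gene was outside at 1.51.

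The 23 genes fall into 2 classes by their level outside S-OE2. In 7 genes no other library had more than 3 counts, and in 4 of them all 6 other libraries had 0. The other 16 genes were detected in all 8 libraries. Genes that the authors assembled from reads are called here by their scaffold. With 0 counts in both libraries, the ratio of FPKM + 0.1 is 1 by construction. The band therefore put no demand on genes with 0 counts in all 6 other libraries. With a few counts outside S-OE2 it could still act. Nitab4.5_0004360g0060 was inside at 1.46 with 2 counts in S-WT against 0 in C-WT in Experiment 1. An assembled gene with 1 count in S-WT against 0 in C-WT in both experiments was outside at 1.51.

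Nitab4.5_0003991g0030 had the highest level of the 7 silent genes and the largest S-OE2/S-WT ratios of all 23 in Experiment 1. It had 155 and 73 counts in S-OE2 in Experiments 1 and 2, or 10.6 and 5.26 FPKM, against 0 counts in each of the 6 other libraries. With a floor of 3 counts in a library at 0, S-OE2 was at least 34.7-fold higher than S-WT in Experiment 1 and at least 18.5-fold higher in Experiment 2. Nitab4.5_0001820g0120 had 136 and 244 counts in S-OE2, or 2.97 and 5.59 FPKM, against 0 in the 6 other libraries. Its bounds against S-WT were at least 30.4-fold and 61.7-fold higher, the larger one in Experiment 2. A gene that the authors assembled from their reads, on scaffold 0001268 from 371009 to 373454, had 59 and 66 counts in S-OE2, or 2.67 and 3.14 FPKM, against 0 in the 6 other libraries. Its levels were the most even of the 7 between experiments.

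Nitab4.5_0008984g0010 had 119 and 50 counts in S-OE2, or 3.27 and 1.45 FPKM, and 0 in the 6 other libraries. Nitab4.5_0001225g0250 had 151 and 69 counts in S-OE2, or 3.84 and 1.84 FPKM, and a single count outside, in C-OE2 of Experiment 2. Both genes were higher in S-OE2 of Experiment 1. Nitab4.5_0012173g0020 had 88 and 55 counts in S-OE2, against 1 and 0 in S-WT, 0 and 2 in C-OE2 and 0 and 1 in C-WT. In Experiment 1, its ratio of S-OE2 to S-WT without a pseudocount was 59.0, with an exact 95% interval for counting error from 10.3 to 2357. Nitab4.5_0004360g0060 had 61 and 74 counts in S-OE2, against 2 and 0 in S-WT, 1 and 1 in C-OE2 and 0 and 0 in C-WT. It had the lowest mean FPKM in S-OE2 of the 23 genes, 1.07. In each of the 7 genes both S-OE2 libraries lay above all 6 others, as the count minimum and the definition of this class require.

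**Figure D2:**
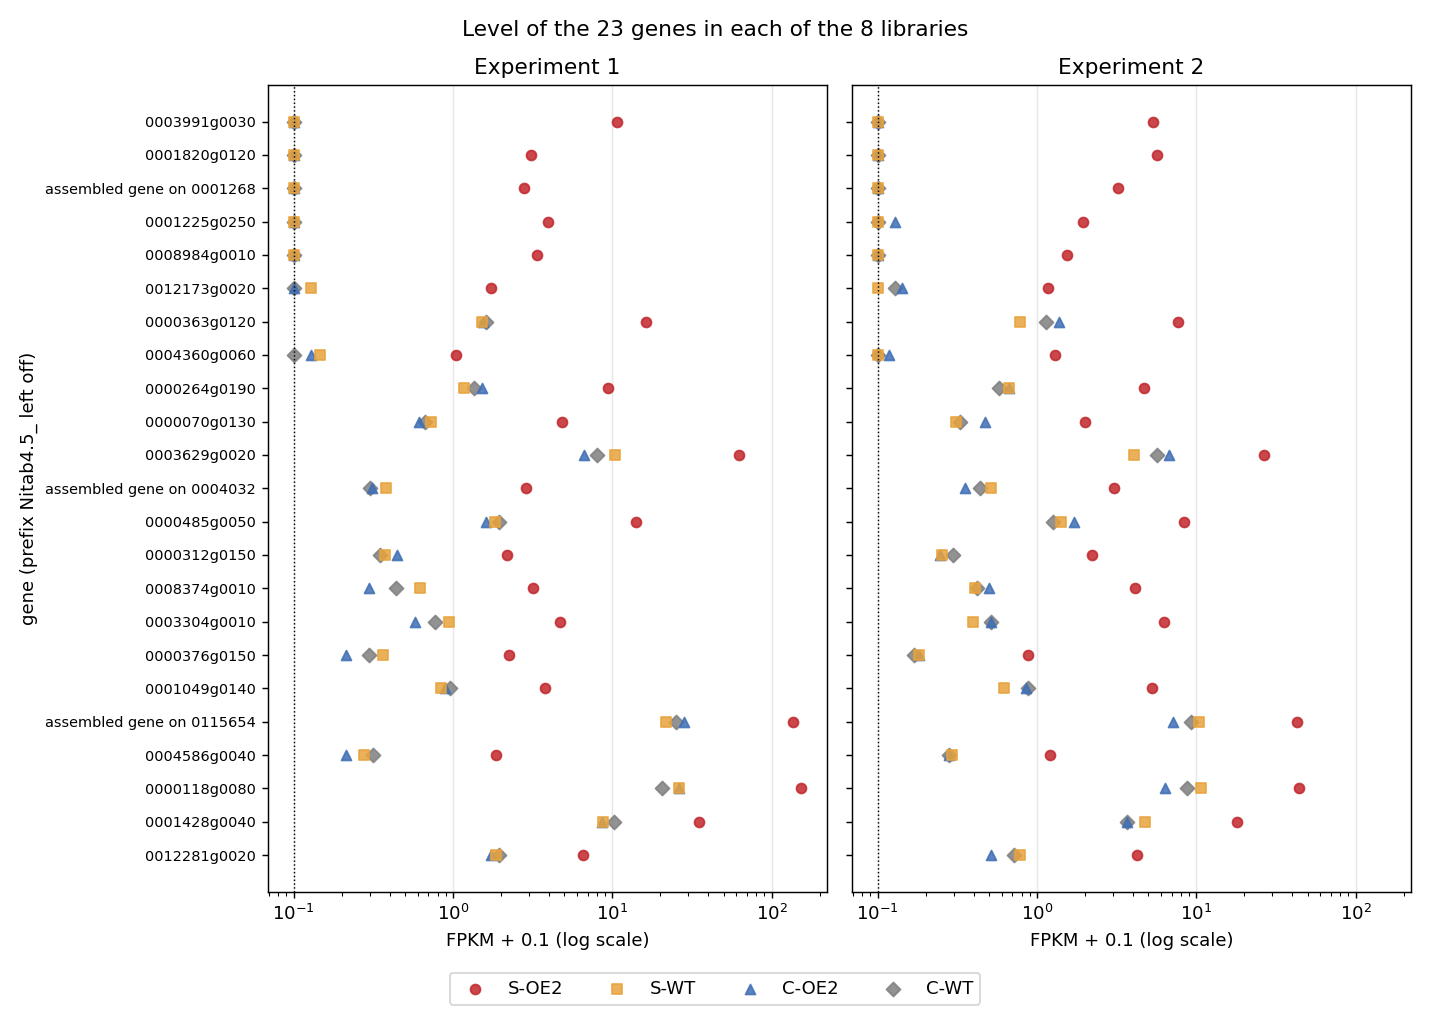
FPKM + 0.1 of each of the 23 genes (rows, in falling order of the lower S-OE2/S-WT ratio) in the 4 libraries of Experiment 1 (left) and Experiment 2 (right), on a log axis. Circles are S-OE2, squares S-WT, triangles C-OE2 and diamonds C-WT, and the dotted line marks 0.1, the value of a gene with 0 counts. Within each experiment the S-OE2 point lies right of the other 3 in all 23 rows, as the rule requires.

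Among the 16 genes that were expressed in all groups, 6 reached a mean of at least 10 FPKM in S-OE2. Nitab4.5_0000118g0080 had the highest level of the 23 genes. It had 153 and 43.7 FPKM in S-OE2, 26.2 and 10.6 in S-WT, 25.9 and 6.30 in C-OE2, and 20.3 and 8.65 in C-WT in Experiments 1 and 2. The assembled gene on scaffold 0115654, from 628 to 2046, followed it closely, with 136 and 42.8 FPKM in S-OE2, 21.8 and 10.2 in S-WT, 28.0 and 7.03 in C-OE2, and 24.9 and 9.19 in C-WT. In both genes all 4 groups were lower in Experiment 2. The lower S-OE2 library of the assembled gene on scaffold 0115654 was only 1.53 times its highest library of any other group, C-OE2 of Experiment 1, which was the narrowest gap of the 19 genes with a count outside S-OE2. Within each experiment its S-OE2 level lay above the other groups, as the rule requires.

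These 2 genes were also the closest pair of the 253 pairs of members. Across the 8 libraries their log2 levels, taken with the pseudocount of the rule, differed by at most 0.29. Their lengths were 957 and 955 bases, and the ratio of their counts stayed between 0.83 and 1.22 in the 8 libraries. They lie on different scaffolds. Whether they are near-identical copies that share reads was not tested, and the 2 values may therefore not be separate measurements. Together they held 47.0% of all counts of the 23 genes in S-OE2 of Experiment 1 and 29.9% in Experiment 2. The second closest pair was Nitab4.5_0001225g0250 with Nitab4.5_0008984g0010, of 1602 and 1482 bases, at 0.36.

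Nitab4.5_0003629g0020 had 62.2 and 26.4 FPKM in S-OE2, 10.3 and 3.94 in S-WT, 6.54 and 6.61 in C-OE2, and 7.89 and 5.55 in C-WT. Its S-WT level was the highest of the 3 low groups in Experiment 1 and the lowest in Experiment 2. Nitab4.5_0001428g0040 had 34.9 and 18.0 FPKM in S-OE2, 8.62 and 4.68 in S-WT, 8.56 and 3.57 in C-OE2, and 10.1 and 3.55 in C-WT. Its lower S-OE2/S-WT ratio, 3.79, was among the 2 smallest of the 23. Nitab4.5_0000363g0120, the longest of the 23 genes with 3888 bases, had 16.1 and 7.57 FPKM in S-OE2, 1.42 and 0.683 in S-WT, 1.44 and 1.28 in C-OE2, and 1.52 and 1.04 in C-WT. Among the 16 genes it had the largest lower S-OE2/S-WT ratio, 9.80. Nitab4.5_0000485g0050 had 13.9 and 8.30 FPKM in S-OE2, 1.74 and 1.32 in S-WT, 1.51 and 1.60 in C-OE2, and 1.85 and 1.16 in C-WT. Its 6 values outside S-OE2 lay between 1.16 and 1.85 FPKM.

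The other 10 genes had 1.43 to 6.99 FPKM in S-OE2 on average. Nitab4.5_0000264g0190 had 9.35 and 4.62 FPKM in S-OE2, 1.08 and 0.565 in S-WT, 1.42 and 0.563 in C-OE2, and 1.26 and 0.479 in C-WT. Nitab4.5_0012281g0020 had 6.43 and 4.13 FPKM in S-OE2, 1.75 and 0.681 in S-WT, 1.62 and 0.413 in C-OE2, and 1.83 and 0.616 in C-WT. In both genes every group was lower in Experiment 2, as in Nitab4.5_0000118g0080. Nitab4.5_0003304g0010 had 4.61 and 6.15 FPKM in S-OE2, 0.838 and 0.295 in S-WT, 0.475 and 0.413 in C-OE2, and 0.675 and 0.414 in C-WT. Nitab4.5_0001049g0140 had 3.67 and 5.16 FPKM in S-OE2, 0.739 and 0.525 in S-WT, 0.797 and 0.751 in C-OE2, and 0.859 and 0.778 in C-WT. Nitab4.5_0008374g0010 had 3.06 and 4.01 FPKM in S-OE2, 0.519 and 0.305 in S-WT, 0.197 and 0.403 in C-OE2, and 0.342 and 0.319 in C-WT. These 3 genes were higher in S-OE2 of Experiment 2, while their S-WT values were lower there, so that the gap to S-WT was wider in Experiment 2.

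The remaining 5 genes rested on the fewest counts outside S-OE2 among the 16 genes. Nitab4.5_0000070g0130 had 158 and 60 counts in S-OE2, 14 and 5 in S-WT, 9 and 11 in C-OE2, and 7 and 5 in C-WT. Nitab4.5_0000376g0150 had 145 and 50 counts in S-OE2, 12 and 4 in S-WT, 4 and 5 in C-OE2, and 5 and 3 in C-WT. Both were higher in S-OE2 of Experiment 1. Nitab4.5_0000312g0150 had 112 and 109 counts in S-OE2, 10 and 6 in S-WT, 10 and 7 in C-OE2, and 5 and 7 in C-WT. The assembled gene on scaffold 0004032, from 42665 to 44438, had 74 and 75 counts in S-OE2, 5 and 8 in S-WT, 3 and 6 in C-OE2, and 2 and 6 in C-WT. These 2 genes had nearly equal counts in both S-OE2 libraries. Nitab4.5_0004586g0040 had 88 and 53 counts in S-OE2, 6 and 7 in S-WT, 3 and 8 in C-OE2, and 4 and 6 in C-WT.

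In all 23 genes the lowest S-OE2 level exceeded the highest level of any other library, across experiments. Within each experiment the limits of the rule require this. Across experiments they only favour it, and the share over all genes was not counted, so nothing is read from it. The mean S-OE2 level ran from 1.07 to 98.4 FPKM with a median of 4.28, against 9.70 over the 30725 genes with an S-OE2 count of at least 50. The 23 genes together took 486 and 270 CPM, counts scaled to a common library total, in S-OE2 in Experiments 1 and 2, against 55.5 and 32.7 in S-WT, 46.4 and 27.8 in C-OE2, and 42.1 and 26.0 in C-WT.

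The S-OE2 level was not the same in the 2 experiments. It was higher in Experiment 1 in 15 of the 23 genes and in Experiment 2 in 8, with a median ratio of Experiment 1 to Experiment 2 of 1.67 and a range from 0.531 to 3.50. Over the 30725 genes the median ratio was 1.02. The ratio to S-WT removed part of this difference. The median S-OE2/S-WT of the 23 genes was 6.67 in Experiment 1 and 8.42 in Experiment 2, and it was larger in Experiment 1 in 14 genes and in Experiment 2 in 9. The median S-OE2/C-OE2 was 8.71 and 8.17. Within the 818 genes with both S-OE2 ratios of at least 3, the median S-OE2/S-WT was 6.77 in Experiment 1 and 20.2 in Experiment 2. The rule asks for a flat S-WT level in both experiments, so nothing is read from this contrast. Ranked by the lower S-OE2/S-WT ratio among the 818 genes, Nitab4.5_0003991g0030 stood at place 10 and Nitab4.5_0012281g0020 at place 734.

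**Figure D3:**
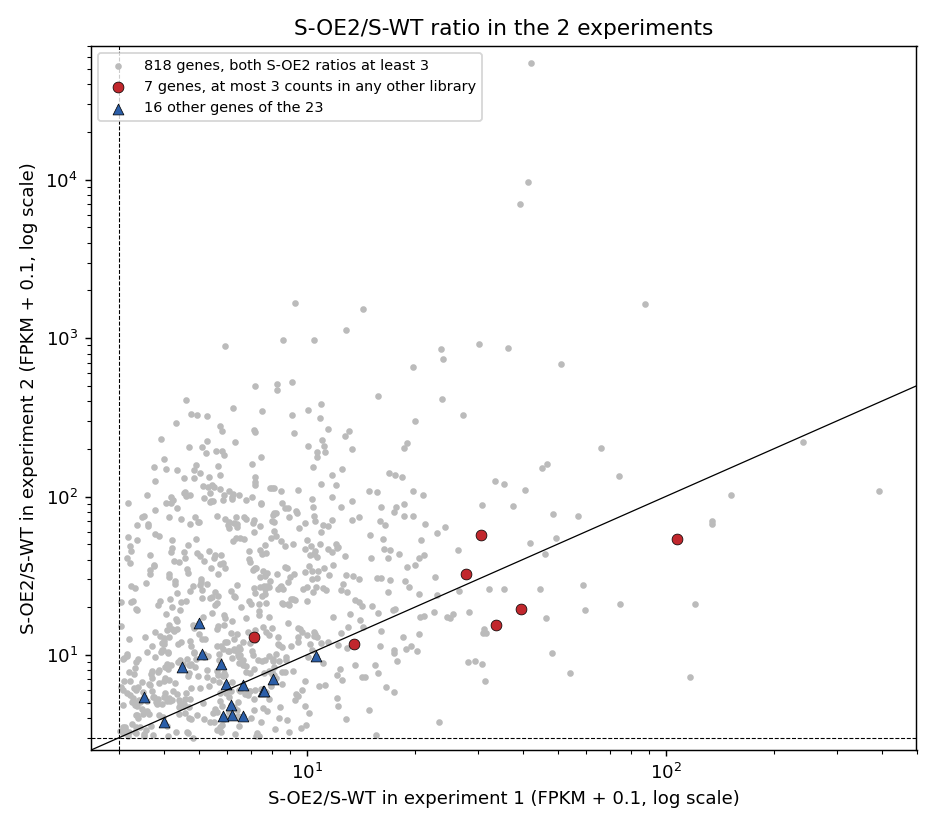
S-OE2/S-WT ratio of FPKM + 0.1 in Experiment 1 (horizontal) and Experiment 2 (vertical), both on log axes, for the 818 genes with both S-OE2 ratios of at least 3 (grey), the 7 silent genes (circles) and the other 16 genes (triangles). The solid line marks equal ratios and the dashed lines a ratio of 3. The 23 genes have medians of 6.67 and 8.42, against 6.77 and 20.2 for the 818 genes.

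The counts give an interval for each ratio. The rule used these ratios and counts, so the intervals are a description. With exact 95% intervals for the ratio of 2 counts, which cover counting error only, S-OE2/S-WT lay entirely above 3 in both experiments for 21 of the 23 genes and entirely above 1.5 for all 23. For S-OE2/C-OE2 the numbers were 20 and 23. The interval of S-WT/C-WT lay within the band in both experiments for 1 gene, the assembled gene on scaffold 0115654, and that of C-OE2/C-WT for 0 genes. With 0 counts in both libraries there is no interval, which left 18 genes with an interval of S-WT/C-WT in Experiment 1 and 17 in Experiment 2. It included a ratio of 3 for 8 and 6 of them, and for these the counts did not separate a flat WT level from one 3 times as high in S-WT. Without a pseudocount, S-WT/C-WT lay outside the band for 1 gene in Experiment 1 and 2 genes in Experiment 2, and C-OE2/C-WT for 3 genes and 1 gene. Genes with 0 counts in C-WT have no such ratio. Of these, 2 genes in Experiment 1 and 0 in Experiment 2 had counts above 0 in S-WT, and 1 and 2 genes had counts above 0 in C-OE2.

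All 23 genes passed the filter on low counts of the fit across 44564 genes, 9 of them through the S-OE2 libraries alone, since only these reached its minimum. In this test, 23 of the 23 genes had a higher level in S-OE2 with an adjusted p below 0.05 against S-WT, where 4.17% of all tested genes were called higher. Against C-OE2, 23 were called higher, where 5.73% of all tested genes were. The rule used both contrasts, so nothing is read from these counts. Leaving out a library of a compared group left that group with 1 library and lowered the calls, among the 23 genes and among all tested genes. The median log2 fold change of the 23 genes without the S-OE2 library of Experiment 1 was 3.25 against S-WT and 3.51 against C-OE2. Without the C-OE2 library of Experiment 1 it was 3.20 against C-OE2. Without the term for the experiment 0 and 5 of the 23 genes were called higher, where 2 and 163 of all 44564 tested genes were. With all libraries and the term for the experiment, the median log2 fold change of the 23 genes was 3.16 against S-WT and 3.29 against C-OE2. The medians over all tested genes were 0.01 and 0.02. With the 7 silent genes set to the bound that a floor of 3 counts per library gives, the medians were the same. Among the 16 other genes the log2 fold change against S-WT ran from 2.07 in Nitab4.5_0001428g0040 (SE 0.25) to 3.56 in Nitab4.5_0000363g0120 (SE 0.29). Against C-OE2 it ran from 2.28 in Nitab4.5_0001428g0040 (SE 0.25) to 3.80 in Nitab4.5_0000376g0150 (SE 0.57).

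Between the 3 low groups the fit called none of the 23 genes. Between C-OE2 and C-WT, 0 of 23 were called higher or lower, where 0.0157% of all tested genes were called higher and 0.0202% lower. Between S-WT and C-WT, 0 of 23 were called, where 0.0381% were called higher and 0.0494% lower. With an unadjusted p below 0.05 the numbers were also 0 and 0, beside 2015 and 4294 of the 44564 tested genes. DESeq2 called 0 and 0 of the 23. It called 197 of 45293 and 207 of 39722 genes with an adjusted p higher, and 46 and 383 lower. Between S-WT and C-WT, DESeq2 gave an adjusted p for 20 of the 23 genes. The rule fixed the outcome of 0 calls too. For the 16 genes the log2 fold change of S-WT against C-WT ran from -0.31 to 0.43, with standard errors from 0.25 to 0.71, and that of C-OE2 against C-WT from -0.32 to 0.32.

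The interaction compares OE-2 with WT under salt and subtracts the same comparison without salt, and it is built from the same ratios. Its median log2 value over the 23 genes was 3.31, beside -0.04 over all tested genes. In edgeR's test 0 of the 23 genes were called, where 0.0135% of all tested genes were called higher and 0.00224% lower, and 16 had an unadjusted p below 0.05, as did 9.85% of all tested genes. DESeq2 gave an adjusted p for 14 of the 23 genes and called 11, where it called 1.14% of all genes with an adjusted p higher. Without the filter on low counts edgeR also called 11, where 0.385% of all genes were called higher, and these were the same 11 genes in both. They included Nitab4.5_0000118g0080, Nitab4.5_0000363g0120 and the assembled gene on scaffold 0115654, the 3 genes that were also called with total-count scaling, where 0.0808% of all genes were called higher. Without the S-WT library of Experiment 1, edgeR called 5 genes, and 0.436% of all genes higher. Without the S-OE2 library of Experiment 2 it called 1, and 0.0822% of all genes higher. None of the 7 silent genes was called, but for 5 of them the fit, with libraries at or near 0 counts, gave no usable standard error of the interaction, so that nothing is read from this. Over the 13 settings of this fit the median ran from 3.01 to 3.54.

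Genes chosen in 1 experiment can be read in the other, whose libraries had no part in that choice. The limits of the rule within Experiment 1 chose 191 genes, and 23 of these, 12.0%, met all limits in Experiment 2. This compares with 1.14% of the 32310 genes with an S-OE2 count of at least 50 in Experiment 1. The limits within Experiment 2 chose 385 genes, and 23 of these, 5.97%, met all limits in Experiment 1, where 0.436% of 32586 genes did. The 4 ratios contributed unequally to these shares.

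Of the 191 genes chosen in Experiment 1, 119 genes or 62.3% had S-OE2/S-WT of at least 3 in Experiment 2, against 5.72% of the genes at large. S-OE2/C-OE2 reached 3 in 61.3%, against 5.34%. The median S-OE2/S-WT of the 191 genes in Experiment 2 was 4.28, against 0.937 at large. S-WT/C-WT stayed in the band in 58.1%, however, against 79.9% of the genes at large, and C-OE2/C-WT in 75.9%, against 87.9%. No test was made of these differences in share.

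Of the 385 genes chosen in Experiment 2, 75.3% had S-OE2/S-WT of at least 3 in Experiment 1, against 4.8% of the genes at large, with a median ratio of 5.02 against 0.976. S-OE2/C-OE2 reached 3 in 83.1%, against 5.52%. S-WT/C-WT lay in the band in 74 of the 385 genes, or 19.2%, against 69.3% of the genes at large, and C-OE2/C-WT in 51.4%, against 75.9%. The salt ratio in WT was therefore the limit at which most genes of Experiment 2 were lost in Experiment 1.

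**Figure D4:**
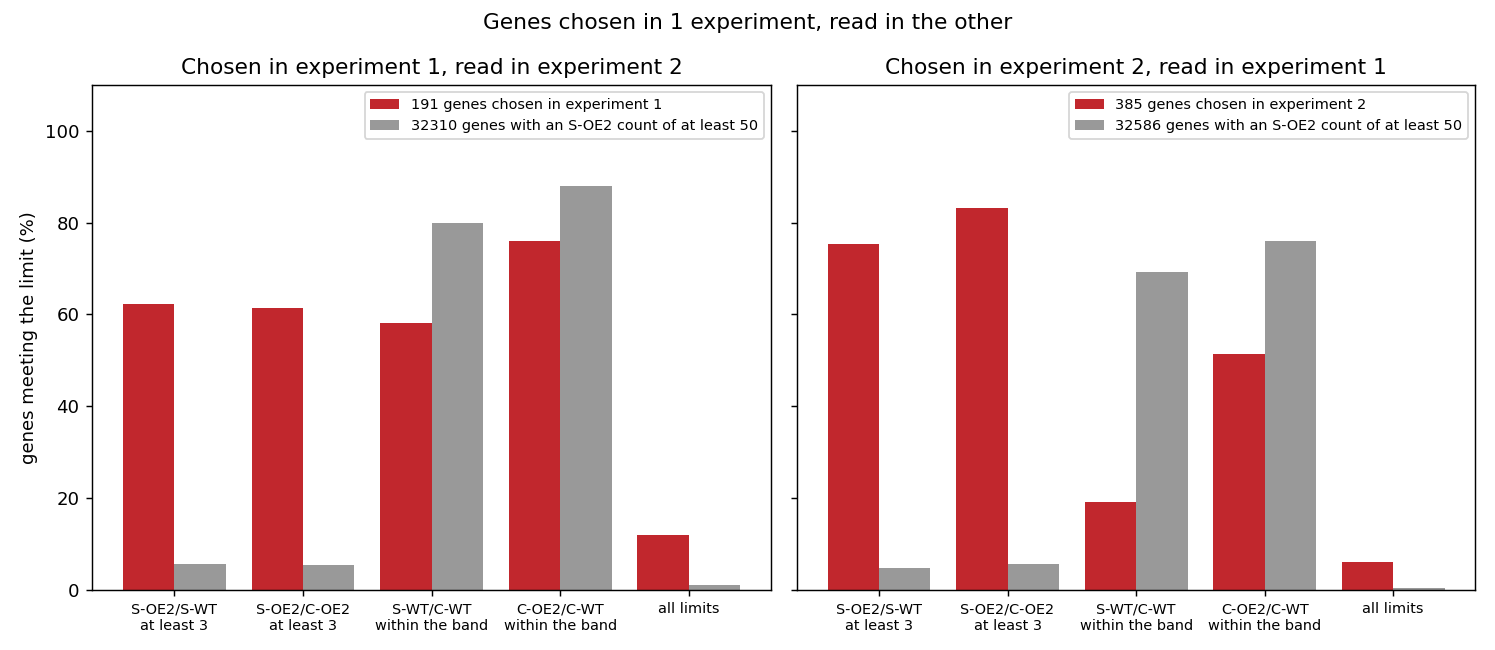
Share of genes that met each limit in the experiment that did not choose them, for genes chosen in Experiment 1 and read in Experiment 2 (left) and the reverse (right). Red bars are the chosen genes, 191 and 385, and grey bars all genes with an S-OE2 count of at least 50 in the choosing experiment. The S-OE2 ratios were met by 61.3% to 83.1% of the chosen genes, and the band of S-WT/C-WT by 58.1% and 19.2%.

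How many genes meet the rule depended on each of its settings. A ratio limit of 4 in place of 3 kept 20 genes, all among the 23, and a limit of 2 gave 86. A band from 0.5 to 2 gave 98 genes. A pseudocount of 0.01 kept 15 of the 23 genes and no other, whereas a pseudocount of 1 gave 99 genes, of which 11 were among the 23. With CPM scaled by TMM factors in place of FPKM, 28 genes met the rule and 20 of them were among the 23. With CPM scaled by total counts there were 54, of which 17 were shared. A ratio limit of 2, a band from 0.5 to 2, a lower count minimum or none, and 1 experiment alone only loosen the rule. They keep all 23 genes by construction, so only the other settings could drop a gene. Across all 11 changes, those of the count minimum and the experiment included, 7 genes met the rule each time. They were the silent genes Nitab4.5_0003991g0030, Nitab4.5_0001820g0120 and the assembled gene on scaffold 0001268, and with them Nitab4.5_0000264g0190, Nitab4.5_0000485g0050, Nitab4.5_0003304g0010 and the assembled gene on scaffold 0115654.

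**Figure D5:**
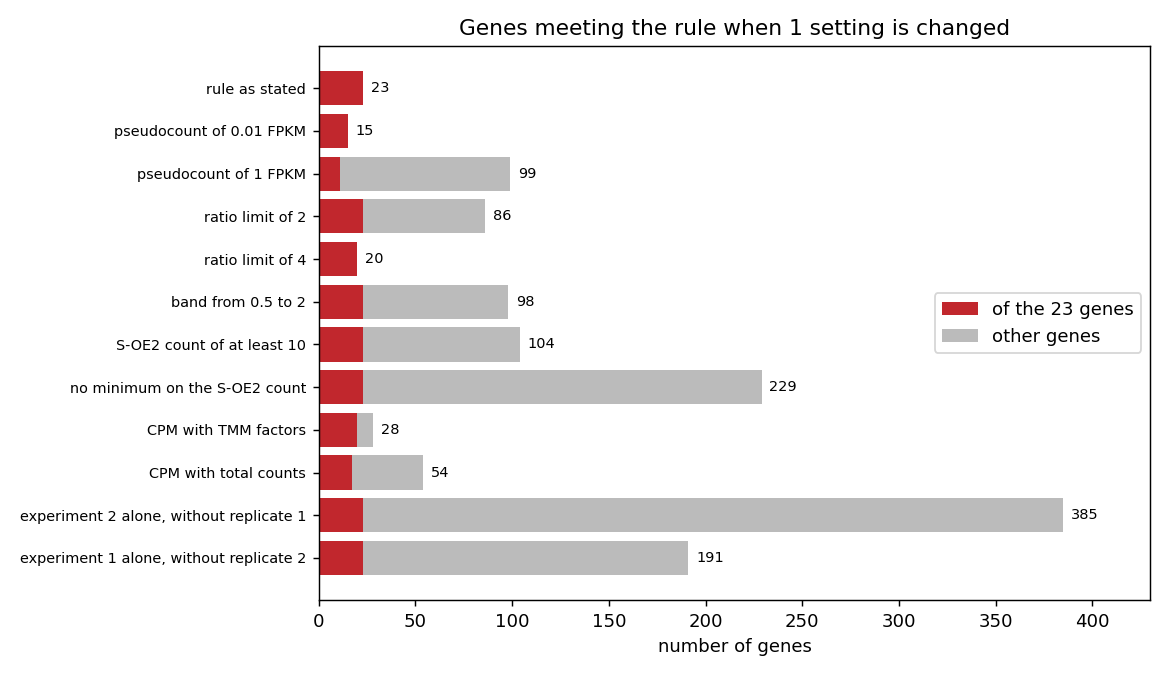
Number of genes that met the rule as stated (top) and with 1 setting changed at a time (rows below), with the part that belongs to the 23 genes in red and other genes in grey. The number ranged from 15 with a pseudocount of 0.01 to 385 with Experiment 2 alone, and the red part from 11 to 23.

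The positions of the 23 genes were not used by the rule, whereas the length of a gene entered it through FPKM. The genes lie on 23 different scaffolds, 14 on the plus strand and 9 on the minus strand. Positions are those of the deposited table. For example, Nitab4.5_0003991g0030 lies on the minus strand of its scaffold from 257264 to 258864, Nitab4.5_0000118g0080 on the minus strand from 512802 to 516133, and Nitab4.5_0000363g0120 on the plus strand from 362904 to 368527. The median transcript length was 1869 bases, with a range from 594 to 3888, against 1254 over the 30725 genes with an S-OE2 count of at least 50. Genes that the authors assembled from reads made up 3 of the 23, or 13.0%, against 8.76% of the 30725. Neither difference was tested. Since length entered the rule, nothing is read from the difference in length.

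The nearest genes along each scaffold were read in the same way. The 23 genes had 36 neighbours before or after them, at distances from 1031 to 187535 bases, and 2 members, Nitab4.5_0008984g0010 and the assembled gene on scaffold 0115654, were alone on their scaffolds. Of the 36 neighbours, 14 had 0 counts in all libraries and 19 passed the filter of the fit. None of the 36 had S-OE2/S-WT of at least 3 in both experiments. Of the 30725 genes with an S-OE2 count of at least 50, only 1084 did, so nothing is read from this. In edgeR's test S-OE2 was called higher than S-WT in 2 of the 19, and higher than C-OE2 in 3 of the 19, beside 4.17% and 5.73% of all tested genes. In 0 neighbours S-OE2 was called lower, beside 3.2% and 6.18% of all tested genes. The 2 and 3 genes are named here after their values were seen.

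Nitab4.5_0004360g0070 lies 11673 bases before Nitab4.5_0004360g0060 on the same strand. It had 495 and 311 counts in S-OE2, 126 and 4 in S-WT, 142 and 39 in C-OE2, and 60 and 22 in C-WT. Its log2 fold change against S-WT was 3.06 (SE 0.72, edgeR adjusted p = 0.037), and its S-OE2 level was above that of the other groups in both experiments. Nitab4.5_0001428g0020, which lies 56318 bases before Nitab4.5_0001428g0040, had 530 and 632 counts in S-OE2, 129 and 218 in S-WT, 174 and 174 in C-OE2, and 50 and 139 in C-WT. Its log2 fold change was 1.36 against S-WT (SE 0.34, edgeR adjusted p = 0.046) and 1.26 against C-OE2 (SE 0.34, edgeR adjusted p = 0.045). Against C-OE2, Nitab4.5_0000070g0160 was called with 0.99 (SE 0.23, edgeR adjusted p = 0.025) and Nitab4.5_0008374g0020 with 1.45 (SE 0.38, edgeR adjusted p = 0.040). In these 4 genes the fitted change was smaller than that of the member next to them. The rule chose the members by large S-OE2 ratios, so nothing is read from this. Without the term for the experiment, 0 neighbours were called in both comparisons. Leaving out any 1 library left 0 or 1 neighbours called against S-WT, the 0 without the S-WT library of Experiment 2. Against C-OE2, 1 neighbour was called without any 1 of the S-OE2 or C-OE2 libraries.

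In 3 members another gene overlaps the gene model. The genes overlapping Nitab4.5_0012173g0020 and Nitab4.5_0003629g0020 had 0 counts in all 8 libraries. The gene overlapping Nitab4.5_0001049g0140 on the opposite strand, Nitab4.5_0001049g0180, had 11 and 17 counts in S-OE2, 4 and 1 in S-WT, 0 and 3 in C-OE2, and 0 and 1 in C-WT. Its counts were far below those of Nitab4.5_0001049g0140, which had 252 and 337 in S-OE2. Since the use of strand is not given, reads of these 2 genes cannot be told apart with certainty.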

How the data were processed

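Leaf RNA of 8 libraries (4 groups, 1 library each in 2 experiments) was analysed. The authors aligned the reads with HISAT2 2.0.5, assembled further transcripts with StringTie 1.3.3b and counted reads per gene with featureCounts 1.5.0-p3, and deposited raw counts of 81378 genes. The authors also deposited FPKM values, in which the count of a gene is divided by its length and 1 library denominator, 49.0% to 97.6% of its total count. How that denominator was chosen is not given in the sources used here.

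Members were found with FPKM + 0.1. Members and lists were chosen with earlier results of these data known. Raw counts were fitted with edgeR 4.0.16 in R 4.3.3: filterByExpr, TMM factors, quasi-likelihood test over all 8 libraries, group and experiment as terms, Benjamini-Hochberg adjustment over 44564 genes, threshold 0.05. Standard errors are the absolute log2 fold change over the square root of F. The experiment pairs the libraries because the study compared groups within each independent experiment, and libraries of 1 experiment deviated together (correlations 0.364 to 0.487 for 6 pairs of groups). With 30 members or fewer, all are named. Exact intervals are 95% binomial intervals of the share of the first count, turned into ratios. The fit was tested on simulated data. DESeq2 1.42.0 served as an alternative. Neighbours were tested after the data had been seen. Planned lists by gene description could not be used, since identifiers matched no description.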

Additional observations from a re-analysis of the deposited data

How the results depend on the processing

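The count of genes meeting the rule was 23 and moved by over 1.5 times under most settings: to 15 with a pseudocount of 0.01 FPKM, 99 with 1 FPKM, 86 with a ratio limit of 2, 98 with a band from 0.5 to 2, 104 with an S-OE2 count of at least 10, 229 with no minimum, 54 with CPM by total counts, and 191 to 385 with 1 experiment alone. Without the replicate block, edgeR called 0 of the 23 genes against S-WT and 5 against C-OE2 in place of 23 and 23. Of all 44564 tested genes, 2 and 163 were called higher, in place of 1860 and 2554. All 23 had an unadjusted p below 0.05 in these comparisons with and without the block. So did 9601 and 11766 of all tested genes with the block, and 5607 and 7297 without it. Leaving out 1 library gave 13 to 23 calls against S-WT and 14 to 23 against C-OE2, the lowest without S-OE2 replicate 1 (13 and 14) and without C-OE2 replicate 1 (14 against C-OE2). Where this left a compared group with 1 library, the calls over all tested genes fell too, so nothing is read from the drop. DESeq2 called 19 in both comparisons, where 2122 of 45293 and 2592 of 47521 genes with an adjusted p were called higher. The interaction had 0 calls, 11 with DESeq2, 11 with no filter, 3 with total-count scaling and 0 to 5 without 1 library, highest without S-WT replicate 1. The median log2 fold change moved with total-count scaling to 3.45 against S-WT and 3.76 against C-OE2, a setting that moves the median of all genes to 0.30 and 0.50, and without 1 library ranged over 3.16 to 3.41 and 3.20 to 3.63. Calls between C-OE2 and C-WT and between S-WT and C-WT stayed at 0 in all settings. The rule fixed this, so nothing is read from it. With only the 4 libraries of the comparison, 11 of the 23 genes were tested in each of these contrasts. Of all genes tested there, 185 of 40632 and 14 of 40598 were called higher, and 28 and 11 lower. For neighbours, calls against S-WT ranged from 0 to 4 and against C-OE2 from 0 to 6 over the settings, with 0 in both without the replicate block. The causes were not tested. Few counts limit how well the band ratios are measured, since 12 of the 23 genes had under 10 counts in both C-WT libraries. Whether depth or a low level lies behind these counts was not tested.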
